A study of Mus musculus with 18 samples.

Results

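The genes described here are 10 clade B serpins of mouse epidermis: Serpinb1a, Serpinb2, Serpinb3a, Serpinb3b, Serpinb3c, Serpinb3d, Serpinb5, Serpinb6a, Serpinb8 and Serpinb12. They were taken by gene symbol from a table of 56246 genes, through the Ensembl identifiers of the mouse GENCODE release M21, and all 10 were found. Another 17 clade B serpins in the table served as comparison. RNA came from dorsal epidermis, scraped with a blade, of male mice aged 10 weeks and sequenced as 18 libraries in 6 groups. K14-OPN mice carry an osteopontin (OPN) transgene under the keratin 14 promoter, which is active in basal keratinocytes, on the OPN-null background. They gave 3 libraries after ultraviolet B (UVB) and 3 without it. OPN-null mice, which the sample labels call OPN KO, gave 4 libraries after UVB and 3 without it. Wild-type (WT) mice gave 3 libraries after UVB and 2 without it. Libraries are named by their genotype, exposure and number, with noTx as the labels' word for no UVB, and values of single libraries are given in the order of these numbers. UVB was a single dose of 180 mJ/cm2, given 48 h after shaving, and skin was taken 24 h later. Whether the unirradiated mice were shaved, and whether the libraries of a group came from separate mice, is not given in the labels, so p-values measure only the spread between these libraries.

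Serpins are protease inhibitors that work by suicide. A protease cuts the exposed reactive loop of the serpin, the loop springs into the body of the molecule, and the protease is dragged along and held in a dead complex. Clade B serpins mostly lack a signal peptide and act inside the cell, where they restrain proteases that leak from lysosomes or granules. Keratinocytes make many of them, and the squamous cell carcinoma antigens of human epithelia, SERPINB3 and SERPINB4, belong to this clade.

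Of the 10 genes, 8 lie in a cluster on chromosome 1 and 2, Serpinb1a and Serpinb6a, on chromosome 13 (GRCm38, gene spans from GENCODE M21). On chromosome 1 Serpinb5 (plus strand, 106861173 to 106883348) and Serpinb12 (plus, 106934449 to 106957080) are followed by Serpinb3a (minus, 107045587 to 107052303), Serpinb3d (minus, 107078167 to 107083506) and Serpinb3b (minus, 107153940 to 107278361). The annotated span of Serpinb3b covers nearly all of that of Serpinb3c (minus, 107271201 to 107278371). Serpinb2 (plus, 107511423 to 107535478) overlaps Serpinb10, and Serpinb8 (plus, 107590006 to 107610484) closes the row. Serpinb1a lies at 32842092 to 32851185 and Serpinb6a at 33917918 to 34002794 of chromosome 13, both on the minus strand.

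The Serpinb3 genes are tandem copies. The stretch that codes for the loop, each within 1 exon of the GENCODE transcript, is shown for the 4 copies because the loop sets which protease a serpin meets. Capitals mark bases that differ from Serpinb3b. Missing bases are not marked: the Serpinb3c stretch has 78 bases (26 codons) against 81 (27 codons) in Serpinb3b. The positions on GRCm38, minus strand, are chr1:107154447-107154527 for Serpinb3b, chr1:107046094-107046174 for Serpinb3a, chr1:107271707-107271784 for Serpinb3c and chr1:107078271-107078351 for Serpinb3d.
Serpinb3b: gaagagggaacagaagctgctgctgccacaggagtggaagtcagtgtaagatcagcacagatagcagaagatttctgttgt
Serpinb3a: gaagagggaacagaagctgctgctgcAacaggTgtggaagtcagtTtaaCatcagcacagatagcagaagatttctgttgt
Serpinb3c: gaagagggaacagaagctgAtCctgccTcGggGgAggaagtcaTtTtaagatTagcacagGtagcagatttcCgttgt
Serpinb3d: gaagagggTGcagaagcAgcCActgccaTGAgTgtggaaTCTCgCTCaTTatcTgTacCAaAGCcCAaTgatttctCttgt
Serpinb3a matched Serpinb3b at 95.1% of the aligned loop bases and 92.9% of the rest of the coding sequence. For Serpinb3c these identities were 85.9% in the loop and 93.9% outside it. Serpinb3d matched Serpinb3b at 64.2% of the loop bases and 89.1% of the rest. The loop stretch of Serpinb5 (maspin, which does not act as a protease inhibitor) is shorter, at 69 bases against 81 in Serpinb3b, and lies at chr1:106881847-106881915, plus strand.
Serpinb5: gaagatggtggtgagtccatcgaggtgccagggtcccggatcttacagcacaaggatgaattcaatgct
Sharing of sequence limits the counts. Of all stretches of 50 bases in the exons of Serpinb3b, 14.7% also occur in another gene, and the share was 15% for Serpinb3a, 12.2% for Serpinb3c, 13.4% for Serpinb3d and 25.1% for Serpinb6a. For Serpinb2 it was 10.4%, all of it in the overlapping Serpinb10. Reads that lie within such stretches could be placed on either gene or dropped, so the split among these copies is uncertain.

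The libraries held 3696865 to 26068614 reads counted to genes. They came in a pair of kinds that the labels do not mention: in 6 libraries, with 1 such library per group, counts of Rn7sk (a small nuclear RNA) outnumbered those of Lars2, the mitochondrial leucyl-tRNA synthetase gene (7SK-rich), and in the other 12 Lars2 outnumbered Rn7sk (Lars2-rich). 3 unirradiated libraries stood apart in hair shaft keratin counts or in the share taken by a few genes: WT noTx 10, K14-OPN noTx 11 and OPN-null noTx 9. Spp1, the gene of osteopontin, measured 327 to 758 CPM (read counts scaled to the size of each library) in K14-OPN epidermis after UVB and 34.5 to 70.4 CPM without it. In OPN-null epidermis Spp1 was at 1.76 to 7.57 CPM after UVB and 0 to 3.66 CPM without it. WT libraries ranged from 13.2 to 385 CPM after UVB and from 2.53 to 45.2 CPM without it, so the lower unirradiated WT library lay within the OPN-null range. Keratinocyte markers were found in every library: the summed basal keratinocyte markers were at least 2094 CPM, and none of these 7 genes was at 0 in any group. The level was uneven. In WT noTx 10 (2094 CPM) and K14-OPN noTx 11 (2348 CPM) this sum lay far below that of hair shaft markers (83668 and 90782 CPM).

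Per kilobase of exon, Serpinb2 and Serpinb5 led the 10 genes. Serpinb2 encodes plasminogen activator inhibitor type 2, an inhibitor of urokinase. After UVB the mean level was 316 RPKM (CPM per kilobase of exon) for Serpinb2, 155 for Serpinb5 and 107 for Serpinb3b. Next came Serpinb6a at 38.7, Serpinb1a at 18.3, Serpinb8 at 17.1 and Serpinb12 at 7.96 RPKM. Serpinb3a at 1.25 and Serpinb3c at 0.979 RPKM followed far below. Within libraries, Serpinb2 exceeded Serpinb5 in 9 of 10 and Serpinb5 exceeded Serpinb3b in 10 of 10, but Serpinb1a exceeded Serpinb8 in 5 of 10 and Serpinb3a exceeded Serpinb3c in 6 of 10, so those 2 pairs of neighbours were not separated. Without UVB the order was Serpinb5 (101 RPKM), Serpinb2 (75.8), Serpinb3b (21.3), Serpinb8 (20.2), Serpinb6a (8.11), Serpinb12 (5.2), Serpinb1a (4.71), Serpinb3a (0.204) and Serpinb3c (0.123). There Serpinb5 exceeded Serpinb2 in 6 of 8 libraries, Serpinb3b exceeded Serpinb8 in 4, Serpinb6a exceeded Serpinb12 in 5, Serpinb12 exceeded Serpinb1a in 5 and Serpinb3a exceeded Serpinb3c in 2, so these neighbours were not separated. Serpinb3d had 2 counts in all 18 libraries together, 1 in each of 2 libraries, and was not tested.

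**Figure D1:**
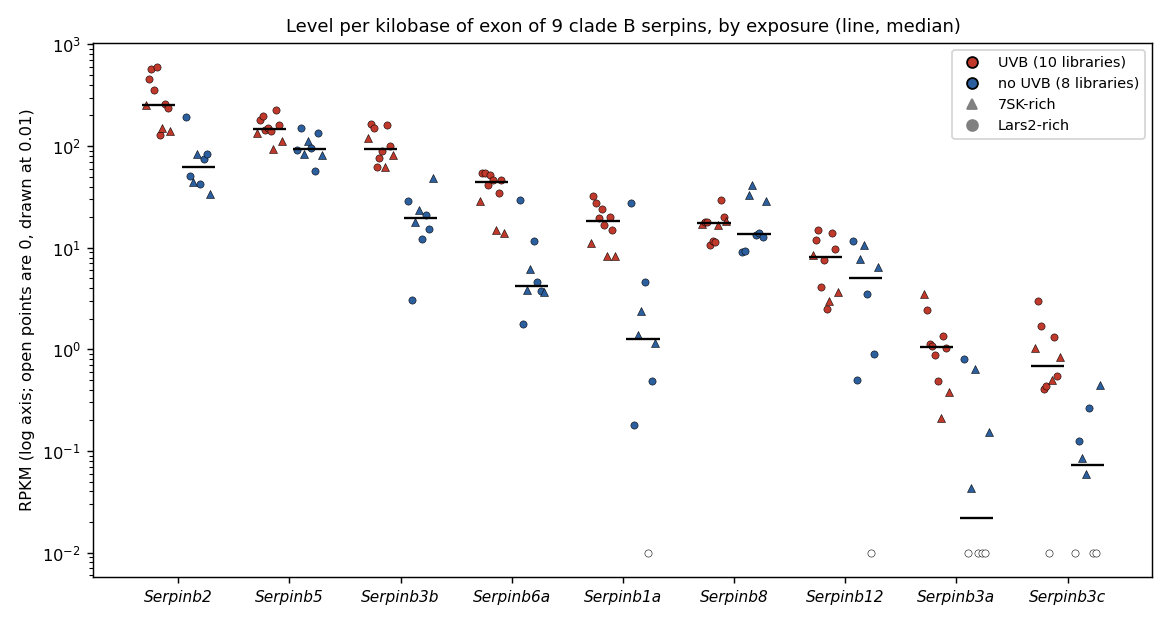
Level of 9 clade B serpins in each library, in RPKM on a log axis, after UVB (red, 10 libraries) and without it (blue, 8 libraries); triangles are 7SK-rich and circles Lars2-rich libraries, lines are medians, and open points are libraries with no count, drawn at 0.01. Serpinb2, Serpinb5 and Serpinb3b lie above the rest after UVB, and Serpinb3a and Serpinb3c lie at the bottom in both conditions.

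Averaged over the 3 genotypes, 5 of the 9 tested serpins rose after UVB and none fell. They were Serpinb3b, Serpinb6a, Serpinb2, Serpinb1a and Serpinb3c, with log2 fold changes between 2.07 and 2.72. Over all 18910 genes tested, 10% rose and 11.4% fell (edgeR quasi-likelihood test with Benjamini-Hochberg adjustment over all of them, threshold 0.05). The median log2 fold change was 2.30 over the 9 serpins and −0.11 over all genes. Leaving out the 3 libraries that stood apart gave 4 called serpins, and Serpinb3c was the one lost. The summed level of 7 wound keratinocyte markers moved with exposure too, at 12571 to 42100 CPM after UVB against 1034 to 9652 CPM without it, and 6 of the 7 rose. The sum of 7 basal keratinocyte markers was 7866 to 26834 CPM after UVB against 2094 to 9452 CPM without it, with 4 of the 7 higher and 1 lower. Of 9 spinous and granular keratinocyte markers none rose and 2 fell, and their sum was 7776 to 27166 CPM after UVB against 4181 to 31036 CPM without it. Markers of 2 other sources also moved. The sum of 8 dermal fibroblast markers was 17.4 to 581 CPM after UVB against 170.2 to 4490 CPM without it, and 5 of the 8 fell. The sum of the 9 matched hair shaft markers was 5.02 to 75.2 CPM after UVB against 18.7 to 90782 CPM without it, and all 9 fell in the average. The high sums were those of K14-OPN noTx 11 (90782 CPM) and WT noTx 10 (83668 CPM), the other 6 unirradiated libraries lay at 18.7 to 212 CPM, and in OPN-null epidermis none of the 9 passed. The part of these cell sources in the serpin values was not tested, and in bulk tissue more cells of a type and more RNA per cell cannot be told apart.

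Serpinb3b, a mouse counterpart of the human squamous cell carcinoma antigens, gave the lowest p among the 9. Serpinb3b measured 201, 278 and 257 CPM in K14-OPN libraries after UVB, against 48.6, 30.2 and 5.11 CPM without it. Among OPN-null libraries it measured 106, 128, 151 and 106 CPM after UVB, against 20.7, 35.6 and 39.2 CPM unirradiated. The WT libraries had 272, 168 and 138 CPM after UVB, against 25.8 and 82.7 CPM unirradiated. The lowest irradiated library of any genotype lay above the highest unirradiated one, a separation that no other of the 10 serpins showed and that 2.51% of all genes showed in this direction. The averaged log2 fold change was 2.30 ± 0.38, adjusted p = 0.000649. It passed in all 18 fits that left out 1 library, with values of 2.13 to 2.67.

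Serpinb3a and Serpinb3c, the close copies, had far fewer counts. Serpinb3b took 96.1 to 100% (median 98.4%) of the counts assigned to the 4 Serpinb3 genes in a library, and its total of 35536 counts was 91.8 times that of Serpinb3a and 102 times that of Serpinb3c. Serpinb3c measured 1.73, 4.95 and 2.84 CPM in K14-OPN epidermis after UVB, against 0, 0.142 and 0.209 CPM without it. In OPN-null libraries the values were 0.678, 0.716, 0 and 0.834 CPM after UVB, against 0.44, 0 and 0.0988 CPM, and in WT libraries 2.21, 0.911 and 1.39 CPM after UVB, against 0 and 0.745 CPM. The K14-OPN groups did not overlap, while the OPN-null groups did. The averaged log2 fold change of Serpinb3c was 2.65 ± 0.85, adjusted p = 0.0348, and it passed in 12 of 18 fits that left out 1 library. The values in these fits ran from 2.45 to 4.50, the highest without WT noTx 11. It was lost without K14-OPN UVB 2 (2.49, adjusted p = 0.0755) or UVB 3 (2.67, 0.0589), K14-OPN noTx 2 (2.66, 0.0514), OPN-null noTx 10 (2.45, 0.0659), WT UVB 6 (2.52, 0.069) or WT noTx 10 (2.49, 0.0901). Serpinb3a gave 2.49 ± 0.89, adjusted p = 0.054. It passed without K14-OPN noTx 1 (3.51, adjusted p = 0.00825), OPN-null UVB 16 (2.59, 0.0461) or OPN-null noTx 10 (4.38, 0.0242), and in DESeq2 (2.44, 0.0123), limma (2.45, 0.0155) and edgeR with library kind as a term (2.41, 0.0383). Serpinb3a reached 5.68, 3.99 and 1.85 CPM in K14-OPN libraries after UVB, against 1.3, 0.0708 and 0 CPM. In OPN-null and WT libraries it ranged from 0.343 to 2.21 CPM after UVB, against 0 to 1.04 CPM.

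Serpinb6a and Serpinb1a are the chromosome 13 pair. Human SERPINB6 inhibits trypsin-like proteases and cathepsin G, and human SERPINB1 inhibits the neutrophil proteases elastase, proteinase 3 and cathepsin G. Serpinb6a measured 154, 296 and 294 CPM in K14-OPN epidermis after UVB, against 160.0, 20.5 and 9.6 CPM without it. In OPN-null epidermis it stood at 222, 279.9, 253 and 81.7 CPM after UVB, against 62.4, 24.9 and 33.6 CPM. WT values of Serpinb6a were 186, 252 and 74.7 CPM after UVB, against 20.2 and 19.6 CPM. Every irradiated OPN-null and WT library was above the unirradiated ones of its genotype, and in K14-OPN the unirradiated library 1 reached the irradiated range. The averaged log2 fold change was 2.48 ± 0.50, adjusted p = 0.00265, and it passed in all 18 fits that left out 1 library (2.31 to 3.17, the highest without K14-OPN noTx 1). Nqo2 lies on the opposite strand within the Serpinb6a span, and whether the counting used strand is not given in the sources used here.

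Serpinb1a showed the same library as an exception. Its K14-OPN values were 25.6, 74.1 and 63.3 CPM after UVB, against 63.4, 3.19 and 0.417 CPM without it. Its OPN-null values were 45.2, 55.1, 38.3 and 19.3 CPM after UVB, against 10.6, 0 and 5.53 CPM. WT libraries counted 46.2, 34.5 and 19.2 CPM after UVB, against 1.12 and 2.63 CPM. Outside K14-OPN the groups were fully apart, and the averaged log2 fold change was 2.72 ± 0.74, adjusted p = 0.015. It passed in 16 of 18 fits that left out 1 library, at 2.52 to 3.91 over the 18 with the highest without K14-OPN noTx 1, and was lost without WT noTx 10 (2.698, adjusted p = 0.0512) or WT noTx 11 (3.01, 0.0526). The unirradiated K14-OPN library 1 also had the highest sum of wound keratinocyte markers among the unirradiated libraries (9652 CPM) and the highest sum of 8 neutrophil markers of all 18 (577 CPM, against 20.9 to 391.7 CPM in irradiated and 0.835 to 25.1 CPM in the other unirradiated libraries). Neutrophils make Serpinb1a as well, and the part of these cells in its values was not tested.

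Serpinb2 had the highest level of the 10 after UVB. It measured 589.8, 1064 and 1359.9 CPM in K14-OPN epidermis after UVB, against 453, 103 and 119 CPM without it. OPN-null libraries had 832, 1409.6, 305 and 352 CPM after UVB, against 98.9, 175 and 197 CPM. WT libraries had 611, 557 and 332 CPM after UVB, against 198 and 79.7 CPM. Within each genotype all irradiated values were above all unirradiated ones, although the unirradiated K14-OPN library 1 exceeded several irradiated libraries of the other genotypes. The averaged log2 fold change was 2.07 ± 0.43, adjusted p = 0.00321, and it passed in all 18 fits that left out 1 library (1.91 to 2.43). Macrophages also make Serpinb2. The summed level of 7 macrophage and monocyte markers was 39.6 to 190 CPM after UVB against 8.14 to 127 CPM without it, with 1 of the 7, Cd68, higher.

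Serpinb5, Serpinb8 and Serpinb12 did not pass in the model of 6 group means. Serpinb5 measured 367, 501 and 546 CPM in K14-OPN libraries after UVB against 250.4, 231 and 414 CPM, and its averaged log2 fold change was 0.62 ± 0.26, adjusted p = 0.106. Serpinb5 passed in limma with quality weights (0.85 ± 0.20, adjusted p = 0.00314), in edgeR with library kind as a term (0.56, 0.0488), also without the 3 libraries that stood apart (0.60, 0.0289), and with total-count scaling (1.21, 0.0374). Over the other genotypes Serpinb5 ranged from 260.0 to 623 CPM after UVB, against 158 to 372 CPM, so its groups overlapped in all of them. Serpinb8, whose human counterpart inhibits the proprotein convertase furin, had 82.2, 85.9 and 86.6 CPM in K14-OPN epidermis after UVB against 43.4, 158 and 45 CPM. Its averaged value was −0.24 ± 0.32, adjusted p = 0.639, and it was the only one of the 9 below 0. Serpinb12, an inhibitor of trypsin-like proteases, had 21.1, 29.6 and 37.2 CPM in K14-OPN libraries after UVB against 29.4, 19.4 and 1.25 CPM, and its averaged value was 0.62 ± 0.61, adjusted p = 0.515. The sign of Serpinb8 turned with library kind as a term (0.034), in limma (0.032), in the Lars2-rich libraries alone (0.57), with scaling by total counts (0.058, which is −0.33 relative to the median of all genes), and without K14-OPN noTx 2 (0.058), OPN-null noTx 10 (0.0058) or WT noTx 11 (0.0067). That of Serpinb12 turned without the 3 libraries that stood apart (−0.036, and −0.30 with kind as a term).

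**Figure D2:**
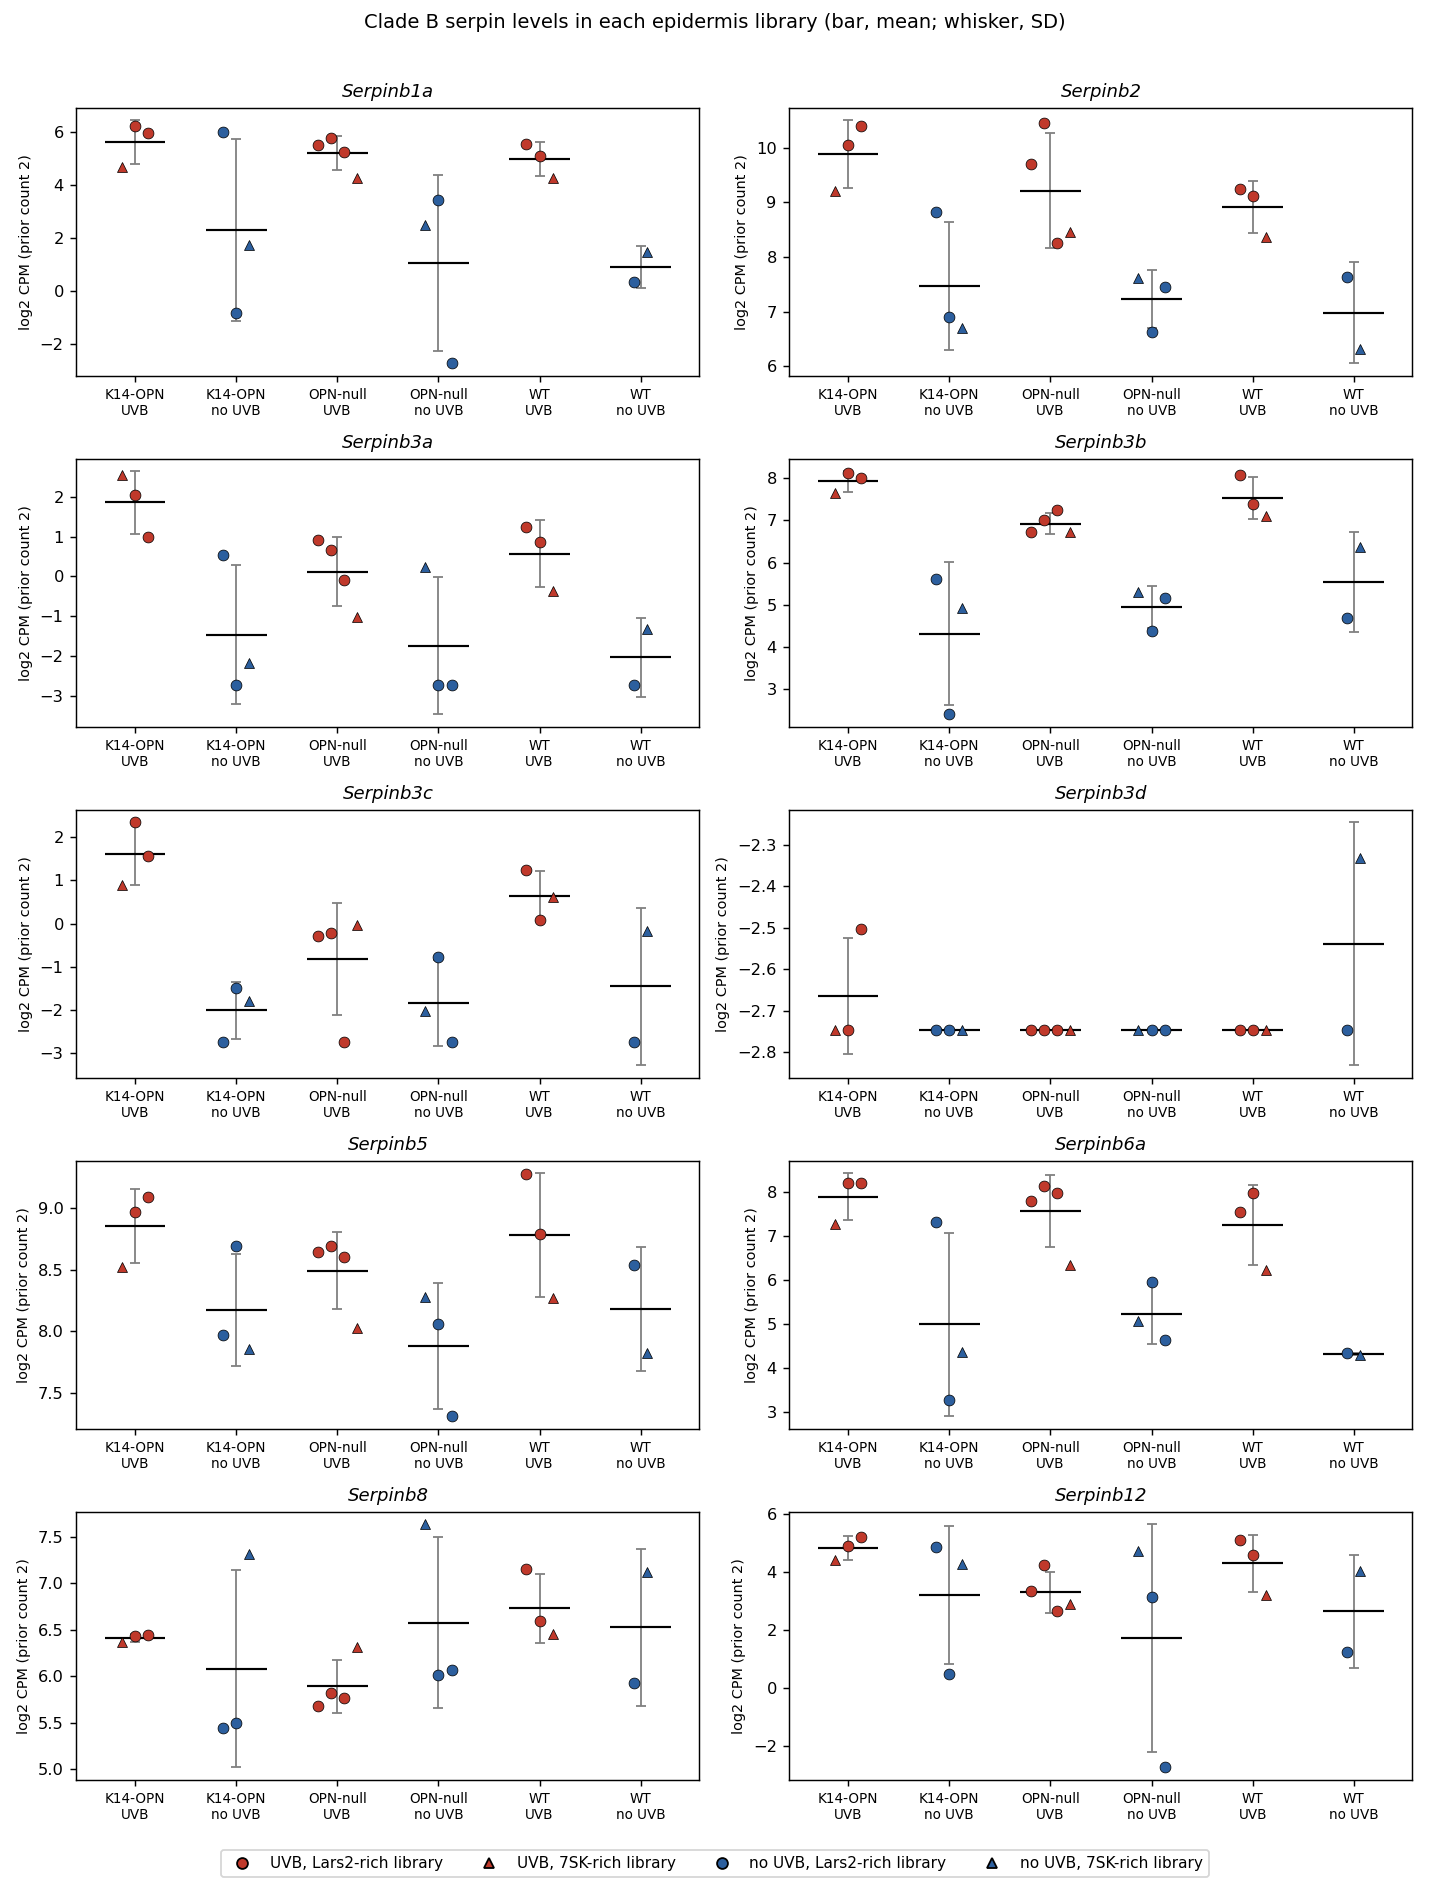
Level of each of the 10 serpins in each of the 18 libraries as log2 CPM (prior count 2), by genotype, with UVB (red) left of no UVB (blue); circles are Lars2-rich and triangles 7SK-rich libraries, bars are means and whiskers SD. Serpinb3b is the one panel where every irradiated library lies above every unirradiated library, and the unirradiated K14-OPN library 1 lies high for Serpinb1a, Serpinb2 and Serpinb6a.

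Within single genotypes few of these differences passed. All irradiated libraries lay above all unirradiated ones for 4 of the 10 serpins in K14-OPN, 4 in OPN-null and 6 in WT epidermis, against 11.5%, 11.3% and 14.8% of all genes. In K14-OPN epidermis 1 of 9 serpins rose, Serpinb3b with a log2 fold change of 3.14 ± 0.64, adjusted p = 0.0283, where 0.508% of all genes rose. That call was lost without K14-OPN UVB 1 (3.25, adjusted p = 0.0527), UVB 2 (3.03, 0.112), noTx 2 (3.19, 0.0557) or UVB 3 (3.09, with the highest p of these fits), and when only the K14-OPN libraries were fitted (3.15, 0.204). Serpinb3c had the highest value there, at 4.49 ± 1.46, adjusted p = 0.129. In OPN-null epidermis none of the 9 passed in edgeR, where 3.41% of all genes were called in either direction. An unadjusted p below 0.05 was found for 4 of the 9, against 3975 of all 18910 genes. DESeq2 and limma each called 3 of them, Serpinb2, Serpinb3b and Serpinb6a. In edgeR Serpinb3b passed without K14-OPN noTx 11 (1.94, adjusted p = 0.02) and Serpinb6a without K14-OPN noTx 1 (2.38, 0.0241). The edgeR values were 1.94 ± 0.59, adjusted p = 0.0802 for Serpinb3b and 2.21 ± 0.69, adjusted p = 0.0858 for Serpinb2. Serpinb3c had 31 counts after UVB and 3 counts without it in OPN-null libraries, a depth-corrected ratio of 4.76 with a 95% counting interval of 1.49 to 24.4. That interval leaves out the spread between libraries, and in edgeR Serpinb3c was at 1.69 ± 1.45, adjusted p = 0.537. In WT epidermis none passed in edgeR either, at a background of 0.0952%. There 4 of the 9 had an unadjusted p below 0.05, against 2463 of all 18910 genes. The highest WT value was that of Serpinb1a, 4.04 ± 1.51, adjusted p = 0.24, followed by Serpinb6a at 3.10 ± 0.99, adjusted p = 0.165. DESeq2 called both, and limma called Serpinb6a. The K14-OPN count depended on the unirradiated library 1: without it 4 serpins passed, Serpinb1a at 4.88 ± 1.095, Serpinb2 at 3.18 ± 0.78, Serpinb3b at 3.79 ± 0.74 and Serpinb6a at 4.04 ± 0.73. How many of all genes passed in that fit is not given here, so the gain has no background beside it.

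**Figure D3:**
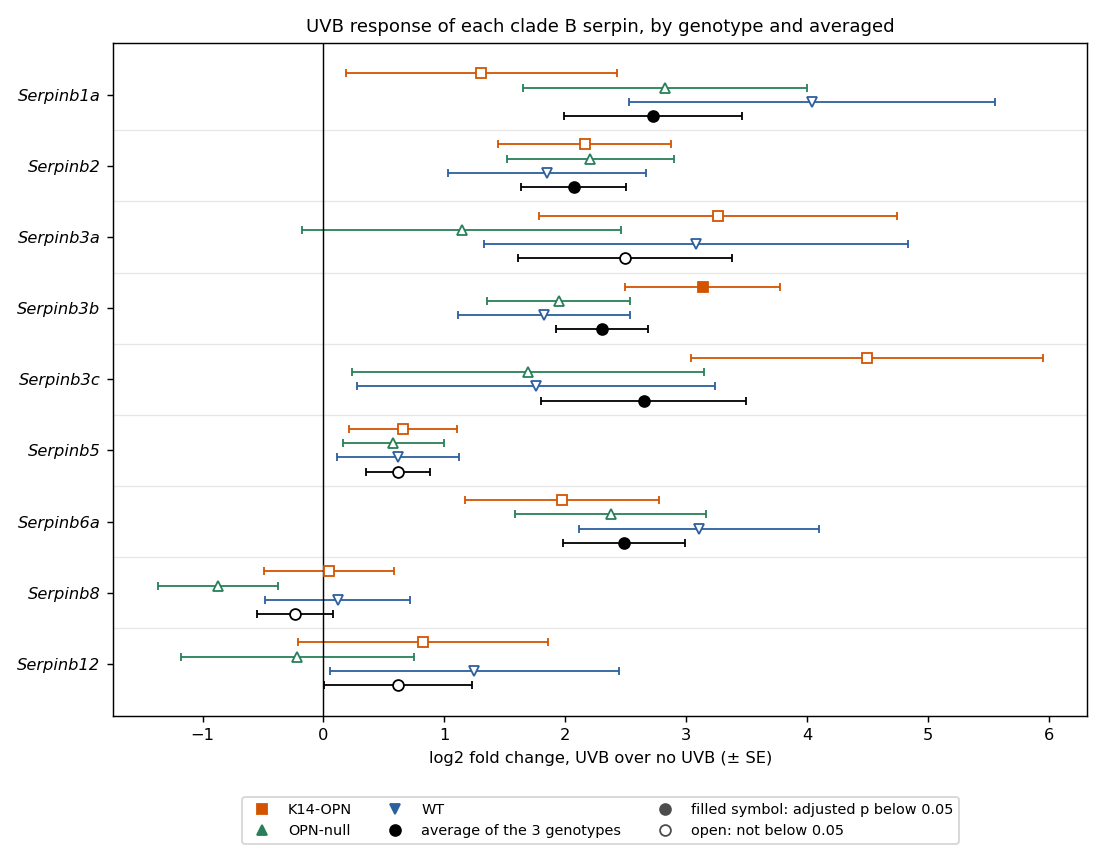
UVB response of 9 serpins as log2 fold change of UVB over no UVB with its SE, for K14-OPN (orange), OPN-null (green), WT (blue) and the average of the 3 (black); filled symbols passed an adjusted p of 0.05. All averages but that of Serpinb8 lie right of 0, and 5 of them and the K14-OPN value of Serpinb3b are filled.

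The transgene and the loss of OPN did not give a called difference in any of the 9 serpins. This held in edgeR for K14-OPN minus OPN-null, OPN-null minus WT and K14-OPN minus WT, each after and without UVB, and for the 3 differences of the UVB response, with 0 of 9 called in each of these 9 comparisons. Spp1, the gene changed by design, was not called either: it stood at 7.11 ± 1.15 (adjusted p = 0.192) in K14-OPN minus OPN-null and at −6.02 ± 1.10 (adjusted p = 0.392) in OPN-null minus WT, both after UVB. Over all genes 1 of 18910 (0.00529%) was called after UVB in OPN-null minus WT, and 0% in the other 8 comparisons. For an unadjusted p below 0.05 in these comparisons, the share over all genes is not given here. Unadjusted p was below 0.05 for 1 serpin in K14-OPN minus OPN-null after UVB, for 1 in K14-OPN minus WT without UVB and for 0 in the other 7 comparisons. The first was Serpinb3c at 2.48 ± 1.16, and Serpinb3b stood beside it at 1.00 ± 0.55. In that comparison all 9 serpins had values above 0, between 0.24 and 2.48, where the median of all genes was 0.0083. These values come from the same libraries and from genes whose levels are correlated, so they are not 9 separate observations. Without UVB, 5 of the 9 were above 0 in K14-OPN minus OPN-null. The 2 exposures share no library, but the K14-OPN and WT comparisons with OPN-null share the OPN-null libraries. In OPN-null minus WT after UVB Serpinb3c was at −1.42 ± 1.15 and Serpinb3b at −0.65 ± 0.55. The second was Serpinb1a at 3.44 ± 1.47, where the unirradiated K14-OPN library 1 held 63.4 CPM. DESeq2 called none in the 9 comparisons, and limma with quality weights called 2 in K14-OPN minus OPN-null after UVB, Serpinb3b (1.05 ± 0.30, adjusted p = 0.0329) and Serpinb3c (3.08 ± 0.75, adjusted p = 0.0166). The share of all genes that limma called in that comparison is not given here, so these 2 calls have no background beside them. A p above the threshold does not show that the genotypes were alike: standard errors here ran up to 1.22 after UVB for K14-OPN minus OPN-null.

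The UVB response was also estimated within each library kind, with a mean for each group and kind. Each group holds 1 7SK-rich library, so that kind has no spread of its own and its values are given without a test. In Lars2-rich libraries, where the unirradiated WT group also holds 1, the averaged log2 fold change of Serpinb3b was 2.88 ± 0.51, adjusted p = 0.00258. Serpinb1a, Serpinb2 and Serpinb6a also passed there, at 3.10 ± 1.00, 2.09 ± 0.47 and 2.59 ± 0.59, where 10.6% of all genes rose. In 7SK-rich libraries the value was 1.64 for Serpinb3b, 2.56 for Serpinb1a, 1.80 for Serpinb2 and 2.04 for Serpinb6a. For these 4 and for Serpinb3c, the 3 irradiated 7SK-rich libraries lay above the 3 unirradiated ones, as they did for 25.3% of all genes. Serpinb8 was the one serpin with the opposite order: its 7SK-rich libraries of K14-OPN, OPN-null and WT held 82.2, 79.4 and 87.3 CPM after UVB, against 158, 198 and 139 CPM without it. Over all genes 29.4% had this opposite order in the 7SK-rich libraries, so it does not set Serpinb8 apart. Its value was −0.98 in 7SK-rich and 0.55 ± 0.19, adjusted p = 0.0628 in Lars2-rich libraries. For Serpinb12 the values were −0.85 in 7SK-rich libraries and 2.06 ± 0.80, adjusted p = 0.0919 in Lars2-rich ones. The difference between kinds was not tested.

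**Figure D4:**
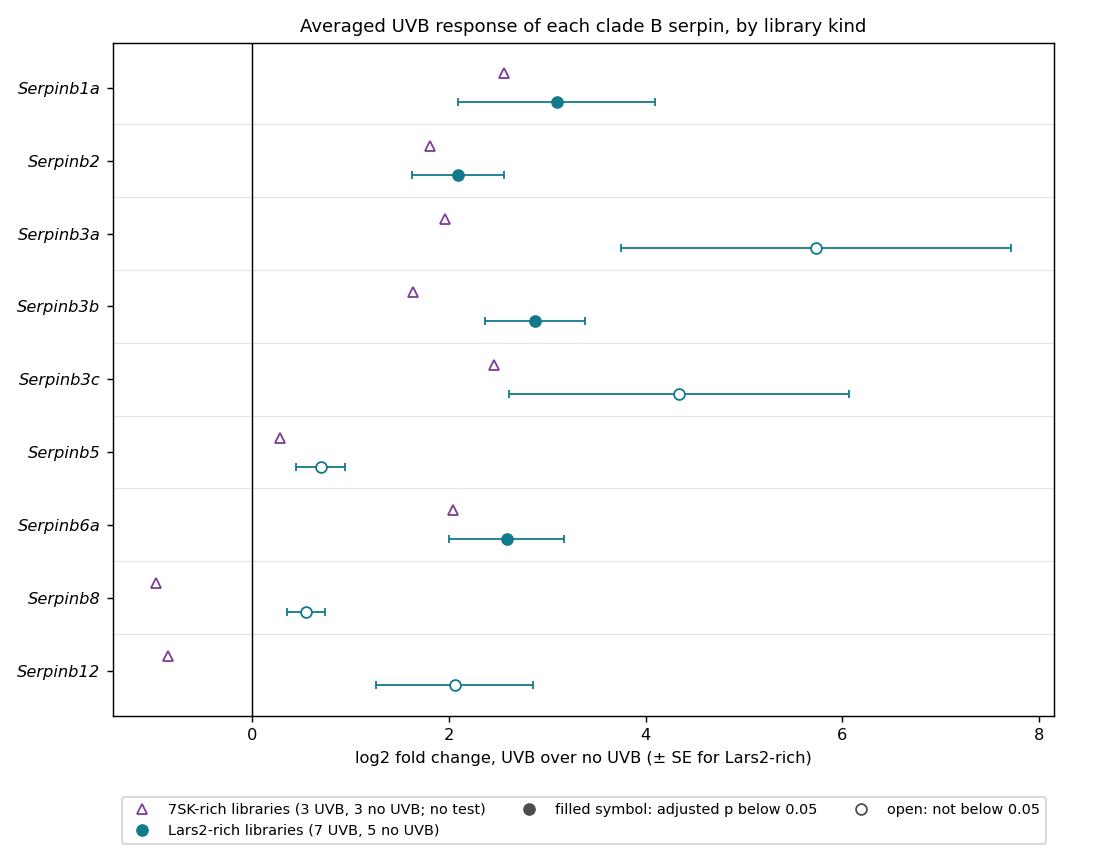
Averaged UVB response of 9 serpins as log2 fold change, in 7SK-rich libraries (purple triangles, values with no test) and Lars2-rich libraries (teal circles, with SE); filled circles passed an adjusted p of 0.05. Serpinb8 and Serpinb12 lie left of 0 in 7SK-rich and right of 0 in Lars2-rich libraries, and the other 7 lie right of 0 in both.

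Among the 17 other clade B serpins, 10 were tested, 1 rose and 1 fell in the averaged response, which is near the share over all genes (10% rose and 11.4% fell). Serpinb6c, which lies beside Serpinb6a and matches 87.2% of its aligned coding bases, rose on the log2 scale by 5.04 ± 0.82, adjusted p = 0.000571. Serpinb6c measured 61.7, 117.3 and 126.9 CPM in K14-OPN libraries after UVB, against 41.3, 0.708 and 0.939 CPM. In OPN-null libraries it had 119, 144, 103 and 39.1 CPM after UVB, against 2.2, 2.14 and 0.791 CPM, and it passed there too (6.09 ± 1.35, adjusted p = 0.0209), but not without OPN-null UVB 14 (5.85, adjusted p = 0.052) or noTx 8 (6.43, 0.0743), 9 (6.31, 0.0783) or 10 (5.53, 0.0746). WT libraries of Serpinb6c stood at 86.9, 129 and 41.5 CPM after UVB, against 2.61 and 0.397 CPM. The unirradiated K14-OPN library 1 is again the exception among the low values, and the averaged value was 6.41 without it and 5.66 without WT noTx 10. Serpinb13, whose human counterpart inhibits cysteine cathepsins, gave −3.04 ± 0.57, adjusted p = 0.00169, and so fell. The value was −2.28 without WT noTx 10. It measured 1.17, 1.17 and 0.245 CPM in K14-OPN epidermis after UVB, against 4.16, 2.69 and 17.5 CPM. OPN-null epidermis had 1.07, 0.307, 1.32 and 0.294 CPM of Serpinb13 after UVB, against 5.28, 2.85 and 4 CPM, and WT epidermis had 1.19, 0.455 and 0.861 CPM, against 16.4 and 2.24 CPM. The highest values, 17.5 CPM in K14-OPN noTx 11 and 16.4 CPM in WT noTx 10, came from the libraries with hair shaft sums of 90782 and 83668 CPM. The part of hair shaft in the Serpinb13 values was not tested. Serpinb13 thus moved opposite to Serpinb3b and Serpinb2 of the same chromosome 1 cluster, and in all 3 genotypes every irradiated library was below every unirradiated one of its genotype. Within a single genotype, 9.21% of all genes in K14-OPN, 7.84% in OPN-null and 13.7% in WT epidermis lay apart in this direction. Over the 3 genotypes together, irradiated Serpinb13 values reached at most 1.32 CPM and unirradiated ones were at least 2.24 CPM. Such a separation across all 18 libraries was shown by 1.23% of all genes.

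Other protease inhibitors of skin moved in the direction of the 5 serpins where they passed. Of 25 listed, 22 were tested, 9 rose and none fell in the averaged response, where 10% of all genes rose and 11.4% fell, with a median log2 fold change of 1.02 over the list and −0.11 over all genes. The 4 with the lowest p were Stfa1, a cysteine protease inhibitor of the stefin family (5.45 ± 1.00, adjusted p = 0.00179), Slpi, the secretory leukocyte protease inhibitor (4.09 ± 0.85, adjusted p = 0.00305), Cst6, the epidermal cystatin M (1.78 ± 0.38, adjusted p = 0.00365), and Wfdc12, a WAP domain protein (5.40 ± 1.22, adjusted p = 0.00505). Of the proteases of the kinds that clade B serpins act on, 17 of 23 were tested, 3 rose and 1 fell, against the same 10% and 11.4% of all genes. Gzmm, a granzyme of lymphocytes, gave 3.09 ± 0.59, adjusted p = 0.0017. Slpi (6.08 ± 1.46, adjusted p = 0.031) and Gzmm (3.66 ± 0.97, adjusted p = 0.0472) also passed in OPN-null epidermis alone. That call of Slpi was lost without OPN-null UVB 13, 14 or 15 or noTx 8, 9 or 10, and that of Gzmm held only without a K14-OPN noTx library, OPN-null noTx 10 or a WT noTx library. Without OPN-null noTx 10, the one unirradiated OPN-null library with a count of Gzmm, the value was 9.66 there and 5.08 in the average, sizes that depend on the prior count. Leaving out K14-OPN noTx 1 moved the averaged value to 5.35 for Slpi and 8.41 for Wfdc12, which stood at 6.83 without OPN-null noTx 10, and leaving out WT noTx 11 moved that of Stfa1 to 6.48. The stefin A genes are near-identical copies, so the level of Stfa1 alone is uncertain. Stfa1 also had no count in the 3 unirradiated OPN-null libraries, so the size of its fitted fold change depends on the prior count. Plau, which encodes urokinase, gave 1.34 ± 0.46, adjusted p = 0.0465. It passed in 5 of the 18 fits, those without K14-OPN noTx 1 or 11, OPN-null UVB 16, or OPN-null noTx 9 or 10, and was lost with RLE scaling (1.28, adjusted p = 0.0528). The lysosomal cathepsin Ctsh gave 0.65 ± 0.19, adjusted p = 0.0209, and was lost without WT UVB 6 (0.577, adjusted p = 0.0549) or WT noTx 11 (0.622, 0.0751). Prss8, the epidermal channel-activating protease prostasin, fell at −0.98 ± 0.28, adjusted p = 0.0195, and was lost without WT noTx 10 (−0.75, adjusted p = 0.104).

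Across the 18 libraries the levels of the 9 tested serpins had Pearson correlations between −0.20 and 0.90 in log2 CPM (36 pairs, median 0.57). These libraries differ in depth, kind and exposure, all of which can enter the correlations, so the correlations are a description. Serpinb1a with Serpinb6a was the highest pair, and Serpinb2 with Serpinb8 the lowest. Of 10375 genes with enough signal, the nearest to Serpinb6a was the basal keratin Krt14 (r = 0.975) and the nearest to Serpinb1a were Tmigd1 (0.979) and the alarmin gene Il33 (0.971). Serpinb3b lay nearest to Rac1 (0.935), a small GTPase of the actin cytoskeleton, and Serpinb2 to Sra1, with Anxa5 next (0.945). Serpinb5 lay nearest to Cdc42 (0.925), Serpinb8 to Cdkn2c (0.911), Serpinb12 to Cyb5r1 (0.928), Serpinb3a to Itgb7, with Mmp12 next (0.891), and Serpinb3c to Lman2 (0.860).

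The 250 bases before the RefSeq start of each gene were compared (GRCm38.p6; 9 of the 10 genes have an entry). Over the aligned bases, those of Serpinb3b matched those of Serpinb3c at 95.4% and those of Serpinb3a at 93.4%, against 59.6% for Serpinb3d. The total count of Serpinb3b was 102 times that of Serpinb3c and 91.8 times that of Serpinb3a. The first 3 are shown with that of Serpinb2, the highest gene after UVB. Capitals mark TATAAA, searched on both strands, and TGANTCA, a loose form of the AP-1 binding motif with any base in the middle, which reads alike on both strands. The windows are chr1:107161115-107161364, minus strand, for Serpinb3b, chr1:107278372-107278621, minus strand, for Serpinb3c, chr1:107052304-107052553, minus strand, for Serpinb3a and chr1:107511173-107511422, plus strand, for Serpinb2.
Serpinb3b: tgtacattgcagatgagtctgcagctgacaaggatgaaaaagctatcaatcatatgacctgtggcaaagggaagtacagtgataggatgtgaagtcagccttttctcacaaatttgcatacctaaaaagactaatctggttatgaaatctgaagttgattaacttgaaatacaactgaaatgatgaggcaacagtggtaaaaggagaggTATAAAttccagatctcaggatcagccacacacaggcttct
Serpinb3c: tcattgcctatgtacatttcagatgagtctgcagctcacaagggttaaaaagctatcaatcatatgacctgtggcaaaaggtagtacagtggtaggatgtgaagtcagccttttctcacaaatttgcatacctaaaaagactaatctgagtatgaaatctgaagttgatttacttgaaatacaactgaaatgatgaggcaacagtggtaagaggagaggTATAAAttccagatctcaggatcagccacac
Serpinb3a: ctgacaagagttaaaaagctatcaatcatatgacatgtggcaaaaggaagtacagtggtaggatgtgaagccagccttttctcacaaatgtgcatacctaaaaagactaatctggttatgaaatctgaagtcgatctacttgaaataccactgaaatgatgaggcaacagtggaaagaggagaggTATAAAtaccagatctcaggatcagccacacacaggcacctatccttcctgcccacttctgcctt
Serpinb2: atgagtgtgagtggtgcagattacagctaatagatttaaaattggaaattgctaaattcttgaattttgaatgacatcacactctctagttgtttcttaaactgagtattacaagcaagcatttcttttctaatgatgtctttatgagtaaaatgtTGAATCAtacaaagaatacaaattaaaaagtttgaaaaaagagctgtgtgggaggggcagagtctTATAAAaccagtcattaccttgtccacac
TATAAA began 41 bases before the start in Serpinb3b, 31 in Serpinb3c, 65 in Serpinb3a and 29 in Serpinb2, and 12.4% of 32851 mouse promoter windows of this length held it. TGANTCA began 94 bases before the shown start of Serpinb2 and was also found in the windows of Serpinb5 and Serpinb8, against 6.75% of all windows. A window of Serpinb12 held it, and a window at another start of Serpinb12 did not. The match read TGAATCA in Serpinb2 and Serpinb5, TGAGTCA in Serpinb8 and TGATTCA in Serpinb12. Windows of Serpinb7, Serpinb10 and Serpinb11, which are not among the 10 genes, held TGANTCA too. TGANTCA was not in the windows of the Serpinb3 genes or Serpinb6a. A match describes the sequence and is not a measured binding site.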

How the data were processed

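The authors deposited 1 table of whole-number read counts per gene for 18 libraries, without normalization. HTSeq 0.11.3, STAR 2.7.5a, Trim Galore 0.6.5 and bcl2fastq 2.18.0.12 appear, with the build GRCm38, in the submitters' processing notes, which give neither role nor order. Counting mode, strand setting and annotation release: not given in the sources used here. Identifiers were matched to GENCODE M21, which gave a symbol to 55230 of 56246 genes. The 5 summary lines of the table that name no gene entered neither library sizes nor tests. Reads outside genes made up 20.8 to 50.4% of the table's reads, ambiguous ones 2.51 to 13.9% and those aligned to several places 12.1 to 29.2%.

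A filter on low counts (filterByExpr, minimum 10, total 15) kept 18910 genes. Scaling was by TMM in edgeR 4.0.16 (R 4.3.3). A quasi-likelihood model with 6 group means was fitted to all 18 libraries. P-values are two-sided and Benjamini-Hochberg adjusted over all genes of each of 13 contrasts, with a threshold of 0.05. Fold changes are log2 with a prior count of 0.125, and the SE is the fold change divided by the root of F. CPM are TMM-scaled, log2 CPM has a prior count of 2, and RPKM divides CPM by the exon length of GENCODE M21. The averaged UVB response was tested on counts simulated with each gene's own spread. Called were 2 of 67 genes changed 2-fold, 38 of 67 changed 4-fold and 52 of 66 changed 8-fold, with 1 false call. Only 200 genes were changed, far fewer than were called in the data, and library kind was not simulated. The changed genes excluded low levels, so recovery of genes as low as Serpinb3a and Serpinb3c was not measured. Reads carry no molecular identifiers, so counting intervals cover counting error only. No pair of libraries of a group agreed within sampling noise (19 pairs, lowest chi-square per degree of freedom 40.2).

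Alternatives were RLE scaling, DESeq2 1.42.0, limma 3.58.1 (voom with quality weights), no filter, only the groups compared, library kind as a term, Lars2-rich libraries only, leaving out the 3 libraries that stood apart, leaving out each library in turn and a replicate block. Total-count scaling and the means per group and kind were added after seeing the data. Named genes are the 10 members, other clade B serpins called in a UVB response, up to 4 called genes of each further list by smallest p, the nearest genes by correlation (mean log2 CPM of at least 1), Spp1, Rn7sk and Lars2. Other genes, such as Cd68, were named after their values were seen. The members and lists were chosen with earlier results of these data known. Of the symbols listed, 4 were not matched. Sequences are from GENCODE M21 transcripts and, for promoters, RefSeq (GRCm38.p6), aligned with Biopython 1.88.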

Additional observations from a re-analysis of the deposited data

Results flagged for a closer look

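Dixon's test at the 95% level was applied to the 4 irradiated OPN-null libraries, the one group large enough, for 9 serpins, and chance marks about 1 in 20 groups. Serpinb3c lay at a log2 CPM of −2.75 in the irradiated OPN-null library 15, which held no count of it, away from the other 3 libraries. Serpinb5 lay at a log2 CPM of 8.02 in the irradiated OPN-null library 16, the 7SK-rich library of that group, below the other 3.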

How the results depend on the processing

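Of 3679 values of single genes under the alternatives, 3558 kept their direction and side of the threshold where called, 73 lost and 48 gained a call, and none that passed reversed. A further count, 174, changed sign while passing in neither fit. Of 368 counts of called serpins, 341 stayed within 1.5 times. For WT (0 called) DESeq2 gave 2, no filter 2 and limma 1, and over all genes these 3 called 643 to 921 genes against 18. For OPN-null (0 called) DESeq2 gave 3, no filter 4, limma 3, the compared groups alone 2, library kind as a term 3, Lars2-rich libraries only 1, without the 3 libraries that stood apart 1, and without them and with kind 3. Over all genes these 8 fits called 748 to 2926 genes against 644, so the serpins' counts moved with the count over all genes. Leaving out 1 library gave 0 to 1 there, with 1 without the unirradiated K14-OPN library 1 or 11. For K14-OPN (1 called) DESeq2 gave 3, limma 3, the compared groups alone 0, library kind 2, without the 3 libraries and with kind 2, total-count scaling 0, and leaving out 1 library 0 to 4. Over all genes the 4 fits with more serpins called 1308 to 2174 genes against 200, and the 3 with fewer, the replicate block among them, 0 to 10. For the average (5 called) leaving out 1 library gave 3 to 6, with 3 without the unirradiated WT library 10. Counts over all genes are not given here for the fits that left out 1 library. Nor are they for the average without the 3 libraries that stood apart. For K14-OPN minus OPN-null after UVB limma gave 2, likewise without a count over all genes. Total-count scaling moved the median averaged fold change of all genes from −0.11 to 0.38, and relative to that median Serpinb3b was at 2.30 against 2.41 with TMM. The cause of these changes was not tested. The numbers 1 and 2 occur both among irradiated and unirradiated K14-OPN libraries, but each same-numbered pair joins a 7SK-rich and a Lars2-rich library, so the correlations of their deviations (r of −0.451 and −0.578) cannot show whether the numbers pair them. Where a left-out library leaves 1 in its group, its spread was taken from the rest. With the replicate block 0 serpins passed in K14-OPN and 4 in the average. Depth limits Serpinb3a, Serpinb3c and Serpinb3d, with 387, 347 and 2 counts in all.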
